A study of Drosophila melanogaster with 9 samples.

Results

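Depletion of Cp190 was compared with mock treatment by ATAC-seq. Kc167 cells, used throughout, are a female embryonic line of Drosophila melanogaster with features of blood cells. ATAC-seq uses the Tn5 transposase to cut and tag accessible DNA, and each library here is represented by its list of peaks, the stretches where fragments piled up above the local background. The comparison takes 6 of the 9 samples of the series, 3 labelled Cp190KD and 3 labelled mock. They were taken by their labels, with earlier results of these data known. Cp190KD cells were electroporated with 12 µg of double-stranded RNA against Cp190, mock cells were electroporated with no RNA, and both were harvested after 5 days. The other 3 samples, M1BPKD, received 20 µg of double-stranded RNA against M1BP and are given only as side values from libraries outside the comparison. Mock cells received no unrelated RNA, so an effect of double-stranded RNA as such cannot be told apart from an effect of Cp190 depletion. The authors describe the 3 libraries of each group as biological replicates. The labels do not say whether these were separate cultures, so what their spread covers is not fully known. How far Cp190 protein fell was not analysed here.

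Cp190 is a zinc finger and BTB domain protein that insulator complexes share. It does not choose its own sites for the most part, and is brought to DNA by proteins that read sequence, among them Su(Hw), the DNA-binding protein of the gypsy insulator, CTCF, BEAF-32, Ibf1 and Ibf2, and by M1BP at promoters with the element called Motif 1. Insulators limit contacts between enhancers and promoters and can stop the spread of repressive chromatin, and many of them lie at nucleosome-depleted sites, which ATAC-seq reads as peaks.

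Peaks of the 6 libraries that overlapped by at least 1 bp were merged into 23700 regions. Lost regions are those with a peak in each of the 3 mock libraries and in no Cp190KD library. Gained regions are the reverse, and retained regions have a peak in each of the 6 libraries. There were 603 lost regions, 286 gained regions and 12698 retained regions. Lost regions were 2.54% of all regions and 4.21% of the 14331 regions with a peak in all 3 mock libraries, and gained regions were 1.21% of all regions. These are counts by definition with no test, and absence of a peak means that the signal stayed under the peak threshold in that library, not that the site was closed. The 6 lists were of like size, with 17178 to 18959 peaks in mock and 18005 to 18625 in Cp190KD, and covered 8.54 to 8.95 Mb and 8.61 to 9.35 Mb. The strength of a peak is given as a percentile, the rank of its −log10 q among all peaks of its own list, with 100 the strongest. The correlation of percentiles over retained regions was 0.948 to 0.953 between mock libraries, 0.942 to 0.962 between Cp190KD libraries and 0.914 to 0.929 across the groups, as a description over regions that share their libraries. Of 11 blood cell markers, 6 (srp, ush, Pxn, Hml, crq and Pvr) had a peak at a transcript start in all 3 mock libraries, and the same 6 in all 3 Cp190KD libraries. Of 10 markers of other cell types, elav, repo and Mlc2 had one in both groups, while the rest, such as Mhc, vas and ninaE, did not.

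Over all lost regions, of the words searched, those of Su(Hw) were the most frequent relative to retained regions. The first word searched, TTGCATAC on either strand, lies in the known Su(Hw) binding site. It came from a list of words chosen with earlier results of these data known. This word stood in 94 of 603 lost regions (15.6%), in 325 of 12681 retained regions (2.56%) and in 2.61% of all regions. The second, GCATACTT, overlaps the first and was added after the data had been seen, since it recurred in lost regions. Its counts are therefore a description. It is called the Su(Hw) core here. It stood in 174 of 603 lost regions (28.9%), in 320 of 12681 retained regions on the 7 annotated chromosomes (2.52%), in 1 of 283 gained regions and in 3.41% of all regions. The strongest lost regions with the core within 50 bp of the summit are shown because they carry this pattern, with the core in capitals and 40 bases to each side (dm6).
near lncRNA:CR44886, chrX:3343846-3343933, minus strand: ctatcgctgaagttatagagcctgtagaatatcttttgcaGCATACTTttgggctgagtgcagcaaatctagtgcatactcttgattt
near CG5388, chr3R:22338768-22338855, plus strand: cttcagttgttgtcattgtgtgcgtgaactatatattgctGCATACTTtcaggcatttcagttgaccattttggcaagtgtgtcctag
near CG14459, chr3L:22634211-22634298, minus strand: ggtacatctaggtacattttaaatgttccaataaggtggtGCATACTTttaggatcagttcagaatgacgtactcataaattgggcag
All 3 windows lie in introns, of lncRNA:CR44886, CG5388 and CG14459. The region by lncRNA:CR44886 had percentiles of 92.4, 87.3 and 95.0 in mock. The region by CG5388 stood at 87.8, 87.8 and 89.5 in mock, and that by CG14459 at 83.1, 86.4 and 80.8. None of the 3 had a peak in any Cp190KD library.

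Another kind of lost region held a CTCF word. AGNTGGCGC, the short CTCF word, stood in 42 lost regions (6.97%) against 531 retained regions (4.19%) and 3.30% of all regions, so that over all lost regions the gap was small. Among the strongest regions, with a mean mock percentile of at least 80, it was in 16 of 58 lost regions (27.6%) against 4.60% of retained regions. The stricter CTCF core, AGGTGGCGC, which the short word contains, was in 9 of those 58 (15.5%) against 1.30%. In the same 58 regions the Su(Hw) core stood in 10 (17.2%) against 2.92% and TTGCATAC in 5 (8.62%) against 3.44%, so that of these 4 words the CTCF core had the largest ratio to retained regions there. The strongest lost regions with the short word near the summit follow, with the word in capitals.
near RapGAP1, chr2L:7535040-7535128, plus strand: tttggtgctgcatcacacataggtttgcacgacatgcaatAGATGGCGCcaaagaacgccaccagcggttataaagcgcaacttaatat
near CG13970, chr2L:20106725-20106813, minus strand: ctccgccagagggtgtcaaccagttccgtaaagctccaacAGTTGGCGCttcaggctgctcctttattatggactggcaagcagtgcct
near CadN, chr2L:17784759-17784847, plus strand: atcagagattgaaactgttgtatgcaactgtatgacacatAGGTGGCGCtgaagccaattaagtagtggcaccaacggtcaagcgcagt
The first lies in an intron of RapGAP1 and the others between genes. The region by RapGAP1 had percentiles of 93.8, 93.4 and 93.6 in mock, that by CG13970 of 90.7, 89.9 and 90.5, and that by CadN, a cadherin of neurons, of 88.7, 91.8 and 89.1. In the 3 M1BPKD libraries the RapGAP1 region had peaks at 93.0, 88.7 and 89.4, that by CG13970 at 72.6, 75.3 and 76.1, and that by CadN at 84.0, 84.9 and 82.7.

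The word ATGTAAAA was likewise added after the data had been seen and is assigned to no factor here. It stood in 46 lost regions (7.63%) against 392 retained regions (3.09%) and 2.16% of all regions, and in 15 of the 58 strongest lost regions (25.9%). The strongest examples with the word near the summit follow, both from promoter regions, and the word is in capitals.
near CG5758, chr2L:18119642-18119729, plus strand: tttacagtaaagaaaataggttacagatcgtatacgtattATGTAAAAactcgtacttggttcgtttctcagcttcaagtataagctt
near CG12986, chrX:17820440-17820527, plus strand: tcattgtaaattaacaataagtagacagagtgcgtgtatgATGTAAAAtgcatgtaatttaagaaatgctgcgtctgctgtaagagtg
The region by CG5758 had percentiles of 89.2, 92.7 and 90.8 in mock and that by CG12986 of 89.5, 88.0 and 92.4. At least one of these 3 kinds of word (the Su(Hw) core, the short CTCF word or the unassigned word) was present in 234 of 603 lost regions (38.8%) and 1191 of 12698 retained regions (9.38%), which leaves most lost regions without any of them. Wider regions have more room for a word, and lost regions were the narrower set, with a median width of 308 bp against 602 bp for retained regions.

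The same peak lists were also counted with the genome rather than the region as the unit, which is not separate evidence. A word under the peaks of a lost region is absent from the Cp190KD counts by definition. The Su(Hw) core and the unassigned word were added after the data had been seen, so their counts have no test. The 12 listed words were themselves chosen with earlier results of these data known. Their permutation p-values are therefore descriptions of these libraries. Of 7605 occurrences of TTGCATAC in the genome, 511, 503 and 505 lay under a peak in the mock libraries and 328, 357 and 338 in the Cp190KD libraries. The groups did not overlap, and the share fell from 6.66% ± 0.0547 to 4.48% ± 0.194 (SD, n = 3 each) with a two-sided exact permutation p of 0.1, the smallest that 3 against 3 libraries allow, and an adjusted p of 0.2 over the 12 listed words. Of 6425 occurrences of the Su(Hw) core, 686, 661 and 672 were under mock peaks and 325, 369 and 339 under Cp190KD peaks. CTCF core occurrences, of which there were 977, numbered 158, 154 and 163 under mock peaks and 144, 125 and 134 under Cp190KD peaks, a smaller gap that also left no overlap (exact permutation p = 0.1, adjusted p = 0.2). The unassigned word was under mock peaks 450, 451 and 440 times and under Cp190KD peaks 371, 384 and 364 times.

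Words of promoter factors did not share this pattern. Motif 1, the element that M1BP binds (searched as GGTCACACT), was under a mock peak at 700, 708 and 706 of 1463 occurrences and under a Cp190KD peak at 715, 730 and 724, slightly more in every library (exact permutation p = 0.1, adjusted p = 0.2). DRE, the element of the promoter factor DREF (TATCGATA), gave 1018, 1022 and 1027 against 999, 1050 and 1047, which overlapped (exact permutation p = 0.6). Among lost regions Motif 1 was present in 1 and DRE in 4, against 698 (5.50%) and 937 (7.39%) of retained regions. For GAGA, the element of GAGA factor (GAGAGAGA), the share under peaks was 17.6% ± 0.375 in mock and 17.9% ± 0.545 in Cp190KD, and the exact permutation p was 0.5. For the GATA word AGATAAGA and the AP-1 word TGANTCA the share was higher in every Cp190KD library than in any mock library, 5.37% ± 0.0431 against 4.90% ± 0.217 and 7.74% ± 0.102 against 7.25% ± 0.204, each with an exact permutation p of 0.1 and an adjusted p of 0.2. Insv, the site of Insensitive (CCAATTGG), Zelda (CAGGTAG), the E-box (CACGTG) and the TATA box (TATAAAAG) had overlapping groups.

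**Figure D1:**
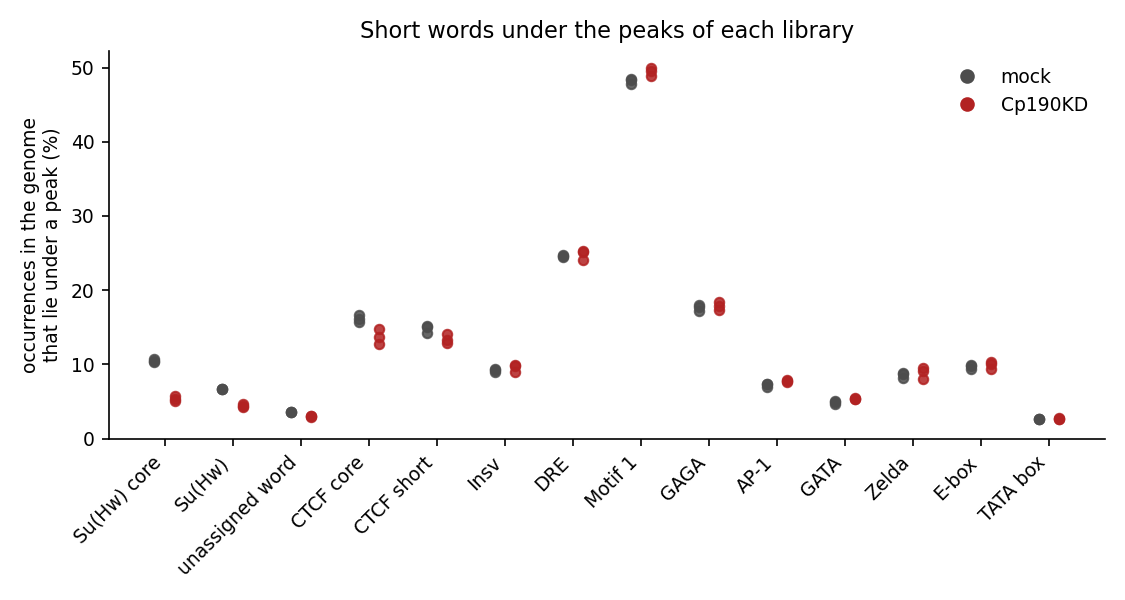
Share of the genomic occurrences of each word (y axis, %) that lay under a peak in each of the 3 mock libraries (grey) and 3 Cp190KD libraries (red), 1 point per library. The Su(Hw) core stood at 10.3% to 10.7% in mock and 5.06% to 5.74% in Cp190KD, while Motif 1 stood at 47.8% to 48.4% and 48.9% to 49.9%.

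The position of the word within the region also differed. The core lay within 50 bp of the summit of the strongest peak in 132 of the 174 lost regions with it (75.9%) and in 97 of the 320 retained regions with it (30.3%), with median distances of 29 bp and 130 bp. Of 301 regions that had a peak in all 3 mock libraries and the core within 50 bp of the summit, 132 were lost (43.9%), while of 298 regions with the core farther away 42 were lost (14.1%), against 4.21% over all such regions. The listed word TTGCATAC gave 73 of 184 (39.7%) near the summit and 21 of 289 (7.27%) farther away. For the short CTCF word these were 22 of 137 (16.1%) and 20 of 473 (4.23%), and for the unassigned word 20 of 86 (23.3%) and 26 of 374 (6.95%). Motif 1 near the summit gave 0 of 275 and DRE 1 of 393. The summit came from whichever library had the strongest peak, which for a lost region is a mock library by definition. Lost regions with the core were also narrower, with a median width of 333 bp against 708 bp for retained regions with it. A word in a narrow region has less room to lie far from the summit, and these shares were not adjusted for width.

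The share lost varied with the strength of the region in mock. Of all regions with a peak in the 3 mock libraries, 8.24% were lost at a mean mock percentile of up to 20, 5.68% between 40 and 60 and 1.07% above 90. With the Su(Hw) core, 54.8% of 31 regions were lost in the weakest band, 43.5% of 170 between 40 and 60, 22.5% of 200 between 60 and 80 and 5.17% of 58 above 90. Regions with none of the 3 kinds of word ran from 7.26% of 1157 to 0.706% of 1559. At every band the share with the core lay above that without the words. The short CTCF word differed, with its highest share, 13.3% of 90 regions, between percentiles 80 and 90 and only 3.64% of 55 in the weakest band.

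**Figure D2:**
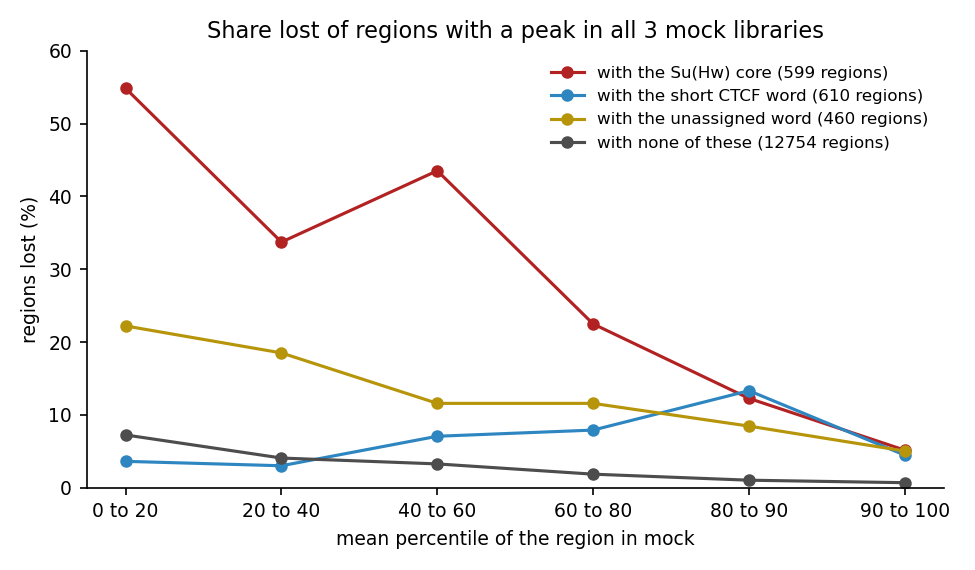
Share of regions lost (y axis, %) among regions with a peak in all 3 mock libraries, by band of mean mock percentile (x axis) and by the word they held, as counted over the 6 libraries together. Regions with the Su(Hw) core ran from 54.8% lost in the weakest band to 5.17% in the strongest, and regions with none of the words from 7.26% to 0.706%.

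Lost regions lay in promoters less often than retained regions, but so did regions neither lost, gained nor retained. A promoter here is the transcript start with 1500 bp upstream. Of lost regions, 164 had their summit in a promoter (27.2%), 100 in an exon, 190 in an intron (31.5%) and 149 between genes (24.7%), whereas of retained regions 50.3% were in promoters, 17.1% in introns and 6.31% between genes. Of regions neither lost, gained nor retained, 23.2% were in promoters, 21.9% in introns and 13.5% between genes. Over all regions these shares were 37.8%, 19.6% and 9.94%. Read the other way, 13.5% of 1100 regions between genes that had a peak in all mock libraries were lost, 7.41% of 2563 in introns, 2.62% of 3823 in exons and 2.40% of 6828 in promoters. Lost regions with the core were in introns in 72 cases, between genes in 44 and in promoters in 43 of 174. The share of all peaks that lay between genes was 8.74%, 8.17% and 8.58% in mock and 7.53%, 7.85% and 7.33% in Cp190KD, which did not overlap (exact permutation p = 0.1, adjusted p = 0.4 over the 4 classes). The share in promoters was 43.2% ± 0.913 in mock and 43.3% ± 1.13 in Cp190KD, a difference within the spread. By chromosome, 3.74% to 4.51% of regions with a peak in all mock libraries were lost on 2L, 2R, 3L, 3R and X, and 4 of 108 on chromosome 4.

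The 10 strongest lost regions ranked in the top 6% of every mock list. The strongest, between genes on 2L at 1006464 to 1006813 and 13000 bp from the start of asRNA:CR46486, had percentiles of 98.1, 97.8 and 98.1. A region by CG6465 on 3R (10675210 to 10675456), with the unassigned word, had 97.5, 97.7 and 98.7. An intronic region of pb on 3R (6708947 to 6709147) had 96.9, 97.4 and 97.4. pb, or proboscipedia, is a Hox gene of the Antennapedia complex, and the nearest start was that of the cuticle protein gene Ccp84Aa. An intronic region of sick on 2L (19887494 to 19887754, nearest start CG10481) held the Su(Hw) core and had 97.6, 97.4 and 96.5. The region at the start of nemy on 2R (12665785 to 12666052), a cytochrome b561 gene involved in memory, had 95.8, 97.2 and 97.3. The region between genes near Jhbp1 on 3R (4970572 to 4971235), which held the CTCF core, had 97.0, 96.5 and 96.6. The other 4 lay by CG14082, CG15550, tRNA:Lys-TTT-2-1 and lncRNA:CR43911, at mean mock percentiles of 97.6, 95.8, 95.3 and 94.4. All 10 still had peaks in M1BPKD libraries, in all 3 of them except for the region by tRNA:Lys-TTT-2-1, which had 2. M1BPKD lists are shorter, with 13464 to 15232 peaks, so their percentiles are not on the same footing.

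**Figure D3:**
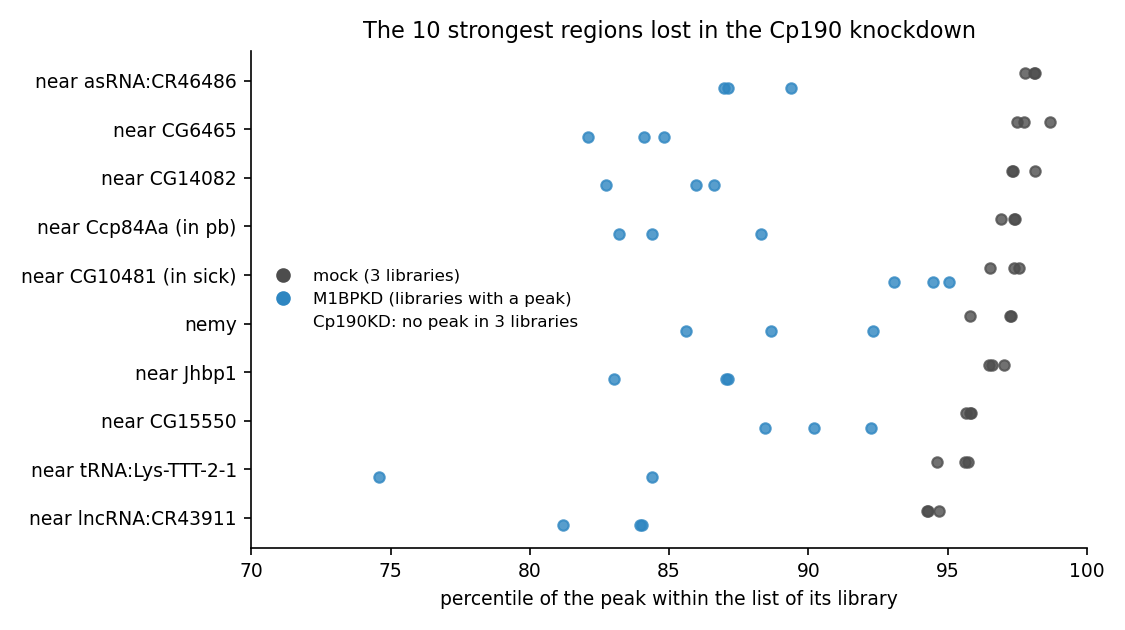
Percentile of the peak within its own list (x axis, starting at 70) for the 10 lost regions with the highest mock percentile, in the 3 mock libraries (grey) and in M1BPKD libraries with a peak (blue), 1 point per library. Mock points lie above 94, and no Cp190KD library had a peak in any of the 10.

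Among the 603 lost regions, 378 (62.7%) had a peak in all 3 M1BPKD libraries and 114 (18.9%) in none, against 72.7% and 12.8% of retained regions. Of the 174 lost regions with the Su(Hw) core, 135 had a peak in all 3 M1BPKD libraries and 13 in none. The mock libraries are common to both comparisons, and the difference between knockdowns was not tested here.

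Lost regions were spread thinly, and a few stretches held several. Of the bins of 100 kb with any region, 871 held no lost region, 288 held 1 and 2 held 6. The latter lie on 3L at 1900001 to 2000000, by Dbx, dsb, CG11815, CG42841 and tRNA:Cys-GCA-2-1, with 6 lost of 14 regions that had a peak in all mock libraries, and on 3L at 5900001 to 6000000, by CG10479, Egfrap and PVRAP, with 6 of 13. Bins with 5 lost regions lie on 2L at 16800001 (by CG13280, CG31809, CG6012 and lncRNA:CR43858), on 2L at 19800001 (by sick, CG10481, snRNA:U4:38AB and snRNA:U5:38ABb), on 3L at 18900001 (by CG18135, CG32204, CG6836 and lncRNA:CR45689) and on 3R at 6700001 (by bcd, Ccp84Aa and lncRNA:CR43435). The last is the Antennapedia complex.

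Around the Hox genes, the homeotic regulators of segment identity, no start of a gene was lost, but regions between starts were. Within 5 kb of the 10 genes of the Antennapedia list lay 29 regions with a peak in all 3 mock libraries, and 6 of these were lost (20.7%), next to 4.21% of all such regions. They include the pb intron above, a region 259 bp from the start of bcd, the anterior morphogen gene, with mock percentiles of 86.2, 87.4 and 87.4, and the region by tRNA:Lys-TTT-2-1 with 94.6, 95.6 and 95.7. None of the 6 held the Su(Hw) core or a CTCF word. A retained intronic region of Antp on 3R (6912247 to 6912464), which holds the CTCF core and the Su(Hw) core, fell from 93.1, 90.5 and 90.2 in mock to 70.5, 76.9 and 69.9 in Cp190KD. In the bithorax complex 1 of 13 regions was lost (7.69%), a count too small to set against that 4.21%, on 3R at 16919027 to 16919352 within lncRNA:iab8, with the CTCF core and mock percentiles of 84.4, 84.0 and 82.2. A region by mir-iab-8 (16869373 to 16869657) fell from 95.9, 96.5 and 96.0 to 89.5, 92.4 and 87.7. In the same window a region at modSP (16655258 to 16655878) fell from 48.1, 40.9 and 46.2 to 20.1, 23.8 and 28.6. Of all gene lists counted in this window, the Antennapedia list had the highest share lost. Outside the Hox lists the share ran from 0 of 70 regions for insulator proteins to 1 of 27 (3.70%) for the Notch and dosage compensation lists. The window of 5 kb was chosen after the data had been seen, and the counts have no test. They were also not matched for the class of region. Over the genome, 13.5% of regions between genes with a peak in all 3 mock libraries were lost, 7.41% in introns and 2.40% in promoters.

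Counted by gene, 86 of 18277 annotated genes had a transcript start within 100 bp of a lost region (0.471%) and 35 had one by a gained region (0.191%). Retained regions of lower or higher percentile, described below, held a start of 105 genes (0.574%) and 32 genes (0.175%). Of the 15 gene lists examined, those of insulator proteins (18 of 20 genes with a region at a start), Polycomb and trithorax proteins (21 of 21), segmentation regulators (20 of 24), ecdysone response (13 of 17), hemocyte identity (8 of 14), Toll and Imd (13 of 19), heat shock (12 of 18) and cohesin and condensin (15 of 16) had 0 genes lost, gained, higher or lower. The median shift of their retained start regions ran from 0.0937 percentile points for hemocyte identity to 1.93 for cohesin and condensin, next to 0.701 over all genes.

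Exceptions among the lists were few. In the dosage compensation list of 8 genes, lncRNA:roX1, a noncoding RNA of the complex that raises expression of the male X, had a lost region at a start (X, 3862485 to 3862849) with percentiles of 76.1, 78.5 and 81.2 in mock. In the JNK list of 11, Tak1, a kinase upstream of JNK, fell from 91.8, 88.8 and 91.5 to 82.6, 82.5 and 84.0 (difference −7.64 ± 1.21 SE, limma adjusted p = 0.00507), and its region holds the short CTCF word. Without the variance trend that call was lost. In the Notch list of 12, the receptor gene N fell from 99.2, 98.7 and 99.0 to 95.9, 97.2 and 97.0 (−2.24 ± 0.466, adjusted p = 0.0272), a call that was lost in 9 of 14 alternatives, among them without any one mock replicate and without Cp190KD replicate 3. In the proteasome list of 31, Prosalpha4 widened in the width test described below. With the replicate number as a block in the limma fit, 0 regions widened. Of 91 cytosolic ribosomal protein genes, 79 had a region at a start and 0 were lost, gained, higher or lower.

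Calls at genes for small RNAs were few. Of 290 tRNA genes, 4 had a lost start region (tRNA:Cys-GCA-2-1, tRNA:Gln-CTG-4-1, tRNA:Pro-CGG-1-1 and tRNA:Thr-AGT-2-1), 1 a gained one and 2 a lower one, which is 1.38%, 0.345% and 0.690% of them next to 0.471%, 0.191% and 0.574% of all genes. Among 32 snRNA genes there was 1 of each (3.13%). tRNA:Gln-CTG-4-1 stood at 83.2, 79.7 and 82.5 in mock and had no peak in Cp190KD. tRNA:Pro-TGG-1-5, whose region holds the Su(Hw) core, fell from 97.9, 98.3 and 98.3 to 70.5, 71.7 and 68.9 (−27.8 ± 1.35, adjusted p = 7.77e-06). Of the snRNA genes, which encode parts of the spliceosome, snRNA:U4:38AB was lost and held both Su(Hw) words, and snRNA:U1:21D, with the core, fell from 96.3, 96.3 and 97.4 to 72.7, 67.7 and 73.4 (−25.4 ± 1.70, adjusted p = 1.91e-05). snRNA:U1:82Eb went the other way. It is the single gained region with the core, with 63.9, 64.5 and 55.7 in Cp190KD and no mock peak. Copies of tRNA and snRNA genes are near identical, and reads that map to more than one place were removed, so values at such genes are uncertain.

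Other genes with a lost start region covered varied roles. dib and shd, both cytochrome P450 enzymes of ecdysone synthesis, stood at mean mock percentiles of 30.2 and 35.4, and Ptth, the neuropeptide that triggers that synthesis, at 50.4. Vmat, the vesicular monoamine transporter, stood at 41.8 and Syn2 at 88.9, both with the Su(Hw) core. brat, a translational repressor and tumour suppressor, stood at 79.1, and msi, an RNA-binding protein of neural progenitors, at 46.2. MtnB, a metallothionein, stood at 36.4. Another metallothionein, MtnA, kept its peak in all 6 libraries but fell, as given below. These genes were picked from the 86 after their values had been seen, as examples of known function.

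Graded shifts were tested in the 12698 retained regions with limma on the percentile, with adjustment over all of them. After Cp190 depletion 284 regions were lower (2.24%) and 72 were higher (0.567%) at an adjusted p under 0.05, with a median shift of 1.12 percentile points over all retained regions. Falls outnumbered rises in every alternative run, but the number that rose depended on single libraries. Without Cp190KD replicate 2 or 3 it was 13 or 17, and without mock replicate 2 or 3 it was 37 or 34, against 196 to 349 that fell without any one library. Lower regions were strong in mock, with a median percentile of 80.3, which was 51.8 in Cp190KD, and higher regions had 59.7 and 76.6.

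Lower regions shared the words of lost regions, although no lost region is among them. The Su(Hw) core was in 93 of 283 lower regions (32.9%) against 1 of 71 higher regions (1.41%) and 2.52% of retained regions. The listed word TTGCATAC was in 54 lower regions (19.1%), the short CTCF word in 28 (9.89%) and the unassigned word in 30 (10.6%). Of the 97 retained regions with the core within 50 bp of the summit, 58 were lower (59.8%) and 0 higher, next to 2.24% of all retained regions lower, and their median shift was −19.6 points. With the core farther from the summit, 35 of 223 were lower (15.7%) and the median shift was −0.00741 points. Near and far shares were not adjusted for region width here either. The summit again came from whichever library had the strongest peak. The percentiles that define the shift thus also chose the summit. The short CTCF word near the summit gave 18 of 100 lower and a median shift of −0.528. Motif 1 near the summit gave 1 of 272 lower and a median shift of 0.741, and DRE 2 of 387 and 0.845. Taken with the losses, of the 301 regions with the core within 50 bp of the summit in all mock libraries, 132 had no Cp190KD peak and another 58 were lower.

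**Figure D4:**
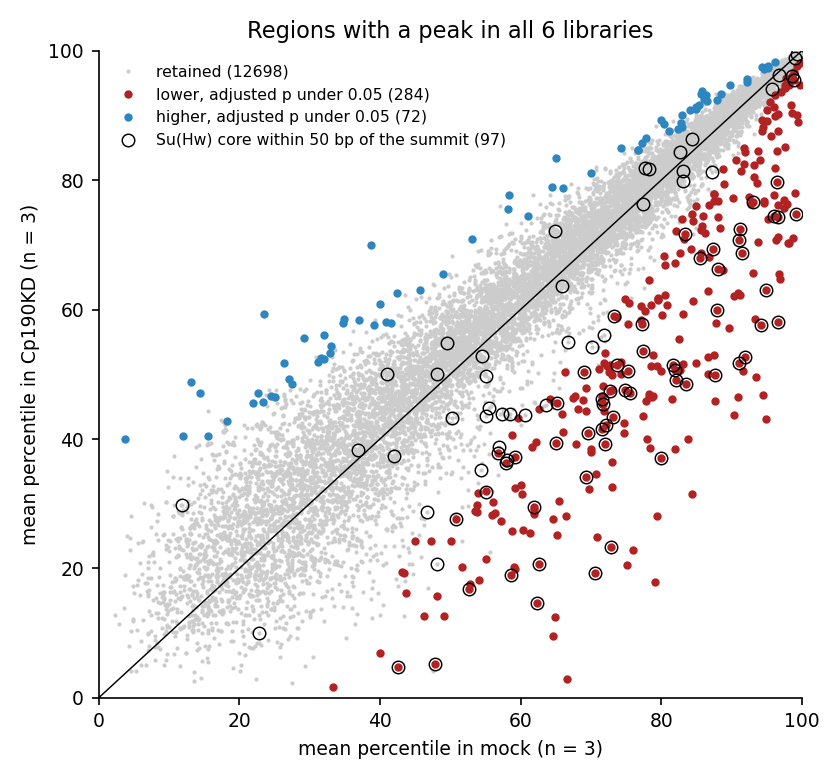
Mean percentile in Cp190KD (y axis, n = 3) against mock (x axis, n = 3) for the 12698 regions with a peak in all 6 libraries, with the 284 lower regions in red, the 72 higher regions in blue and the line of equality. Black circles mark the 97 regions with the Su(Hw) core within 50 bp of the summit, of which 58 are among the lower regions.

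**Figure D5:**
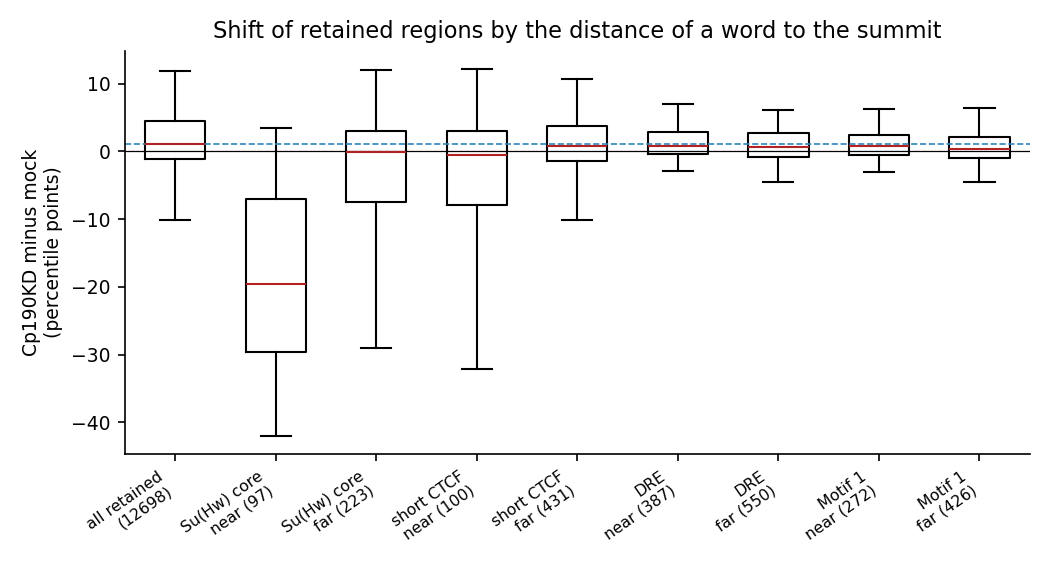
Shift of the percentile (y axis, Cp190KD minus mock, in percentile points) of retained regions by word and by whether the word lies within 50 bp of the summit (near) or not (far), with the number of regions in brackets. Boxes span the quartiles with the median in red, whiskers the 5th to 95th percentiles, and the dashed line is the median of all retained regions, 1.12, against −19.6 for the core near the summit.

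The rank of word-bearing peaks within each list was lower in Cp190KD for the CTCF words but not, over whole peaks, for TTGCATAC. CTCF core peaks ranked above other peaks by a median of 16.8, 17.7 and 17.2 points in mock and 10.3, 14.0 and 12.2 in Cp190KD, and short CTCF word peaks by 12.5, 13.0 and 13.8 against 8.69, 9.91 and 9.44. Neither pair of groups overlapped (exact permutation p = 0.1, adjusted p = 0.24 over the 12 words). For TTGCATAC the groups overlapped, with 12.9 ± 1.58 points in mock and 14.1 ± 1.11 in Cp190KD over whole peaks (exact permutation p = 0.4). For the Su(Hw) core, with no test, it was 9.18 ± 1.71 points in mock and 3.17 ± 1.59 in Cp190KD. When the word had to lie within 100 bp of the summit the difference turned to −6.14 points for TTGCATAC and grew to −19.0 for the CTCF core. The rank is taken over peaks that are still in the list, so peaks that were lost do not enter it.

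The regions that fell most kept a peak in every library. The region at the start of DopEcR on 3L (4380262 to 4380656), a receptor for dopamine and ecdysteroids, fell from 62.8, 70.1 and 67.0 to 3.48, 1.62 and 3.66 (−63.7 ± 4.59 points, limma adjusted p = 2.97e-05). The region at the start of MtnA on 3R (9784236 to 9784808), which chelates copper and other metals, fell from 86.3, 82.6 and 84.1 to 26.4, 44.2 and 24.0 (−52.8 ± 5.14, adjusted p = 0.000169), and CG8500 starts in the same region. In M1BPKD libraries the MtnA region stood at 24.7, 39.8 and 30.4. An intronic start of shakB on X (20791913 to 20792809), an innexin of gap junctions, fell from 95.5, 94.3 and 95.0 to 53.5, 44.7 and 31.0 (−51.9 ± 4.86, adjusted p = 0.000137), while in M1BPKD it stood at 91.2, 92.4 and 92.0. Dyrk2, a protein kinase gene whose intronic region on 2L (14196955 to 14197758) holds the core, fell from 75.9, 79.6 and 82.6 to 34.3, 23.4 and 26.6 (−51.3 ± 4.12, adjusted p = 5.03e-05).

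The remaining 6 of the 10 that fell most lay by CG11449, CG4849 (within betaTub97EF), CG7509, Trhn, rho-6 and lncRNA:CR44535. Trhn encodes the neuronal tryptophan hydroxylase of serotonin synthesis, and rho-6 belongs to the rhomboid proteases. Their differences lay between −61.4 and −51.3 points. Of the 10, those by CG11449, Trhn, lncRNA:CR44535 and Dyrk2 held the Su(Hw) core. All 10 kept their call in each of the 13 alternatives in which they could be fitted.

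The regions that rose most were weak in mock. The region at the start of CG8547 on 2R (14267667 to 14268084) rose from 29.5, 11.4 and 29.5 to 60.3, 58.9 and 58.7 (35.8 ± 5.40, adjusted p = 0.00367), and an intronic region of kek5 on X (19379488 to 19380153), a leucine-rich repeat membrane protein gene, rose from 5.47, 15.4 and 18.4 to 51.1, 50.1 and 45.2 (35.7 ± 5.42, adjusted p = 0.00385). An intronic region of vri on 2L (5303308 to 5303989), a transcription factor of the circadian clock, rose from 23.3, 26.0 and 29.8 to 48.4, 55.0 and 52.0 (25.5 ± 4.38, adjusted p = 0.00843). The other named regions lay by CG40198, CG46385, REPTOR, CG7370, nAChRbeta3 and lncRNA:CR46444 and on an unplaced sequence of the Y chromosome. The calls for CG8547, kek5 and the unplaced region held in all alternatives. Kc167 is a female line, so values on a Y sequence are uncertain, and where those reads came from was not tested. The rest lost the call in 3 to 10 of 13, among them vri without Cp190KD replicate 2 or 3.

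Gained regions were mostly weak peaks. Of the 286, 122 had a mean Cp190KD percentile of up to 20, 113 one between 20 and 40, and 1 was above 80. They were narrow, with a median width of 274.5 bp, and 195 of them (68.2%) had no peak in any M1BPKD library. That share was 36.0% over all regions and 65.2% over regions neither lost, gained nor retained. Their summits lay in exons in 33.6% of cases (32.6% of all regions) and in introns in 28.3% (19.6%). In promoters lay 25.4% (37.8%) and between genes 12.7% (9.94%). An annotated transposon held 11 (3.89%), against 1 of 603 lost regions and 1.12% of all regions. The strongest lay at the start of tRNA:Gln-TTG-2-1 on X (3427454 to 3427644), with 81.8, 78.7 and 80.0 in Cp190KD. An intronic region of stx, near ras, followed with 78.2, 76.9 and 76.2, and the region at the start of CG10417 and lncRNA:CR42646 with 68.4, 69.5 and 72.7. The start of Tango11 (62.6, 70.0 and 67.1) and an intronic region of br, or broad, an early transcription factor of the ecdysone response (59.9, 64.7 and 61.4), were also among the 10. The others lay in sty, by lncRNA:CR43334, CG31998, snRNA:U1:82Eb and ATPsynbeta, at mean percentiles of 61.0 to 63.4.

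Width was tested separately, on log2 of the bases that peaks covered in each retained region. By limma 61 regions narrowed (0.48%) and 26 widened (0.205%) at an adjusted p under 0.05, with a median change of 0.0372 log2 units. These counts depended on single libraries. Without mock replicate 2 they were 10 and 11, without mock replicate 1 they were 19 and 14, without mock replicate 3 19 regions narrowed and without Cp190KD replicate 3 38 did. With the replicate number as a block in the limma fit, 0 regions narrowed and 0 widened, so none of the width calls held there. Narrowed regions had a median mock percentile of 71.5 and a median shift of −23.8 points. An intronic region of Ten-m on 3L (22338865 to 22339897), with the Su(Hw) core, had 801, 748 and 831 bp under peaks in mock and 228, 198 and 227 bp in Cp190KD (−1.87 ± 0.0804 log2 units, adjusted p = 0.00492). Ten-m is a teneurin, a cell surface protein of synaptic partner matching. An exonic region of lncRNA:CR45707 on 2L went from 835, 788 and 922 bp to 222, 233 and 195 bp (−1.97 ± 0.0965, adjusted p = 0.00561). The kek5 region that rose in percentile also widened, from 190, 195 and 216 bp to 646, 666 and 662 bp (1.72 ± 0.0659, adjusted p = 0.00385), and an exonic region of corn on 3L went from 433, 528 and 459 bp to 1668, 1403 and 1515 bp (1.69 ± 0.0999, adjusted p = 0.00741). The other named regions that narrowed lay by CG15282, lncRNA:CR44923 and Tmhs and those that widened by scra, MCU and Sbat. Of these, Sbat kept its call without any one library, and each of the other 5 lost it in 6 of its 8 or 9 alternatives, mostly when single libraries were left out. Several separate peaks of one region are summed here, so a region can narrow by losing one of them.

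The genes targeted by RNA interference were themselves little changed in accessibility, which does not measure their product. The region at the start of Cp190 on 3R (15274382 to 15275313) stood at 83.7, 83.7 and 83.2 in mock and at 87.4, 85.6 and 86.2 in Cp190KD (2.91 ± 1.24 points, limma adjusted p = 0.298). The region at the start of M1BP (3R, 8730351 to 8731750) stood at 77.6, 85.3 and 89.1 in mock and 84.2, 76.2 and 82.9 in Cp190KD (−2.93 ± 2.94, adjusted p = 0.708).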

How the data were processed

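Before deposition the authors used cutadapt 1.8.1 for trimming and mapped read pairs with Bowtie2 2.3.5 to dm6, removed mitochondrial reads with SAMtools 1.9, duplicates and reads without a unique place, and called peaks in each library with MACS2 2.2.5 without a control. The deposited lists give the position of each peak, a −log10 p and a −log10 q, the ratio of the summit to the local background (fold enrichment) and a score that restates −log10 q, all as the authors' caller wrote them. Whether cut positions were shifted was not stated. Read totals are not in the lists, so depth is unknown. Fragments over summits, recovered from fold enrichment and −log10 p, came out whole within 0.05 for 100% of peaks. Their median per library was 155 to 162 in mock and 171 to 182 in Cp190KD, so the groups did not overlap. Whether this difference affected which peaks were called was not tested.

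Percentiles were taken within each list, and per region the strongest peak of a library was used. Summits were annotated with Ensembl release 115 on the RefSeq dm6 sequence; nearest genes are by transcript start. Fits used limma 3.58.1 in R 4.3.3 with a mean-variance trend and Benjamini-Hochberg adjustment over all retained regions. They were also run on simulated data with the same spread in every region. That run cannot show how the fit does on real percentiles, whose spread need not be equal. The authors' own differential test runs on alignments, which were not used here. Values per library were compared by two-sided exact permutation over the 20 assignments, so no such p can be under 0.1. Words were searched on both strands. Calls are presence by definition or an adjusted p under 0.05.

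Named regions are the 10 strongest lost and gained, the 10 that rose and fell most, the 5 that widened and narrowed most, the targeted genes, changed members of the lists and the 5 fullest bins of 100 kb, with ties. The members of the comparison, the words and the gene lists were chosen with earlier results of these data known. Alternatives were stricter peak thresholds, equal list lengths, other overlap rules, other scales, a replicate block, all 9 libraries and each replicate left out.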

Additional observations from a re-analysis of the deposited data

How the results depend on the processing

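The count of lost regions stayed between 412 and 697 under other thresholds and overlap rules, and was 689 to 884 without one library, which loosens the definition. Gained regions were 386 to 552 without one library. Regions of higher percentile numbered 197 on log2 fold enrichment, 310 on log2 summit fragments, 242 with all regions and absent peaks at 0, 42 with all 9 libraries, 42 without the trend, and 13 to 87 without one library. Regions of lower percentile numbered 539 on log2 summit fragments, 782 with absent peaks at 0, 184 without the trend, 162 of 7934 with only peaks of −log10 q 20 or more, and 196 to 349 without one library. Widened regions were 11 to 20 and narrowed regions 10 to 44 without one library, and narrowed regions were 40 with that stricter threshold. Under it the intron share differed by 0.514 percentage points, and with a promoter of 100 bp to each side the share between genes differed by −1.55. Word rank with the stricter threshold differed by 7.70 points for TTGCATAC, −2.56 for the CTCF core, −1.72 for the short CTCF word and 1.37 for Motif 1, and within 100 bp of the summit by −6.14, −19.0 and −11.9 for the first 3. The share of lost regions with the Su(Hw) core was 33.0% with −log10 q from 10, 36.3% with it from 20, and 22.4% to 27.1% without one library; with TTGCATAC it was 19.5% at 20 and 12.2% to 14.5% without one library, and with the short CTCF word 11.4% at 20. These last alternatives were chosen after seeing the data. The causes were not tested.

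With the replicate number as a block, 26 regions were higher and 243 lower in percentile, and 0 widened and 0 narrowed (adjusted p of 0.199 to 0.210 for the 10 named width changes), where the limma fit with the block still gave 1239 at an unadjusted p under 0.05. The labels do not say whether same-numbered libraries were prepared together. Deviations of same-numbered libraries correlated at −0.0860, −0.0405 and −0.00146, and those of different-numbered libraries at −0.0313 to 0.0702. Values this small show no sign of pairing but cannot exclude it. For single named regions, 79 of 80 values of lost or gained regions, 282 of 344 percentile values and 47 of 82 width values kept their side of the threshold, and none turned direction. The list gives no reads, so a weak peak just under the threshold counts as absent.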
